A study of Mus musculus with 6 samples.

Results

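Prox1, Lyve1, Pdpn, Mmrn1, Nts, Fgl2, Sema3d and Ccl21a, which are used to tell lymphatic from blood vessel endothelium, were examined in endothelial cells sorted from mammary glands without and with Ets2 in the surrounding fibroblasts. A gene was measured by the probe sets (groups of short probes read together) whose annotation names that gene alone, and the brightest of these, averaged over the 6 arrays, stood for it. This gave 7 of the 8 genes, with 13 probe sets, among 18193 genes and 45037 probe sets in all. The only probe set that lists Ccl21a, the chemokine that guides dendritic cells into lymphatic vessels, names 9 genes, so no value is given for it. The list was chosen on the differences between the groups and on the agreement of the markers from array to array in these same data, so the values below describe the genes and test nothing.

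Mammary glands were taken from FVB/N mice at an age of 9 weeks, CD31-positive cells were sorted, and their amplified RNA was read on Affymetrix mouse genome arrays, 3 per group. Mice of the deleted group had the genotype PyMT;Fsp-cre;Ets2db/loxP and those of the control group PyMT;Ets2db/loxP, so that both groups carried the PyMT oncogene, which is expressed in the mammary epithelium, as well as 1 Ets2 allele without the DNA-binding domain (db) and 1 allele flanked by loxP sites. In Fsp-cre mice the promoter of Fsp1 (S100a4) drives the recombinase, which is used to reach fibroblasts and is known to be active in some other cells, and the endothelial cells themselves were not the target. For the control samples the source label denies an oncogene but every other label, the genotype included, gives PyMT, and the genotype was followed. The sample titles end in codes whose first part is called the identifier number here. FPE101 and FPE104 occur in both groups, on replicate 1 and replicate 2 of each, while the part after the number differs between the groups. The labels do not say what either part marks. The study calls the samples biological replicates, and nothing in the labels says whether tissue of several mice was pooled.

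Lymphatic vessels return fluid, immune cells and, in tumors, sometimes tumor cells from the tissue to the blood. Their endothelium carries CD31 as blood vessel endothelium does, so a CD31 sort collects both. Lymphatic identity is set by the transcription factor Prox1, which is switched on in the embryonic cardinal vein downstream of Sox18 and Nr2f2, and lymphatic sprouting is driven by Vegfc acting on the receptor Flt4 (VEGFR-3) with its co-receptor Nrp2. Several of the markers are not exclusive to lymphatic vessels: Lyve1 is carried by some tissue macrophages, Pdpn by fibroblasts and myoepithelial cells, and Fgl2 by macrophages and T cells.

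Values are log2 signals from the Robust Multichip Average method (RMA), on which a step of 1 is 2-fold, and differences are deleted minus control. Over all tested probe sets the signal spanned 2.31 to 14.9 with a median of 7.04, and the array medians lay between 7.02 and 7.07. Of the 7 genes, 6 had a mean above the median of all probe set means, and Sema3d lay just below it. Ets2 itself, which was deleted in fibroblasts and so does not check the labels of sorted endothelial cells, had a signal of 14.43, 14.30 and 14.50 on the deleted arrays and of 14.48, 14.41 and 14.26 on the control arrays (difference 0.02, SE 0.14). Control replicate 3 lay furthest from the other arrays on the first principal component (70.2, against -37.1 to 35.8) and had the largest excess of 3′ over 5′ signal for Gapdh, 1.31 against 0.75 to 1.01 on the other 5 arrays, a measure of RNA integrity. Not one of the 45037 probe sets passed an adjusted p of 0.05 in limma's moderated test (0% of all, smallest adjusted p 0.9999), while 934 (2.07%) had an unadjusted p under 0.05 and the unmoderated tests with equal and unequal variance also called 0.

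All 7 measured genes had a lower mean in the deleted group, whereas 49.1% of all genes did (8924 of 18193). Their differences ran from -0.62 for Lyve1 to -0.02 for Fgl2 with a median of -0.36, against a median of 0.0042 over all genes. In none of the 7 were the groups free of overlap, while 2.7% of all genes had every deleted array below every control array (6.07% in either direction). None of the 7 had an unadjusted p under 0.05 or passed the study's limits of a 2-fold change at that p, which 0.129% of the probe sets passed. The difference was larger than the SD of both groups for 1 gene, Mmrn1, and the 95% interval of the difference included 0 for all 13 probe sets. The shared direction depended on the arrays: 5 of the 7 were lower without control replicate 1, and with array quality weights, which gave control replicate 2 a weight of 8.32 against 0.38 to 0.99 for the others, 3 of the 7 were lower and the median difference was 0.10. In bulk RNA a smaller share of lymphatic cells among the sorted cells and less RNA per lymphatic cell cannot be told apart.

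Prox1, the homeobox factor that sets and keeps lymphatic identity, had a signal of 9.35, 9.44 and 10.05 on the deleted arrays and of 10.72, 9.999 and 9.20 on the control arrays. The control arrays held both the highest and the lowest value, so that the deleted arrays lay within their range. The means were 9.61 ± 0.38 in the deleted and 9.97 ± 0.76 in the control group (SD, n = 3 each), a difference of -0.36 (SE 0.39, 95% interval -1.27 to 0.55). The other probe sets of Prox1, both far below the median signal, differed by -0.14 and -0.42. Control replicate 1 decided the direction, since without it the difference was 0.01.

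Lyve1, a hyaluronan receptor of lymphatic capillaries, had a signal of 9.01, 7.96 and 8.62 on the deleted arrays and of 9.81, 8.23 and 9.42 on the control arrays. Control replicates 1 and 3 lay above every deleted array, and control replicate 2 lay between the lowest and the middle deleted array. The means were 8.53 ± 0.53 in the deleted and 9.15 ± 0.82 in the control group, with a difference of -0.62 (SE 0.44, 95% interval -1.66 to 0.41). A second probe set of Lyve1, also above the median signal, differed by -0.18. On it control replicate 3 (8.45) lay below deleted replicate 1 (8.68), and control replicate 2 (7.78) was the lowest array. The difference of the representative probe set was -0.29 without control replicate 1 and -1.08 without control replicate 2.

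Pdpn encodes podoplanin, a membrane glycoprotein that binds the platelet receptor CLEC-2 and keeps blood out of lymphatic vessels. Its signal was 10.17, 9.77 and 9.91 on the deleted arrays and 10.41, 9.76 and 10.86 on the control arrays. Here too control replicates 1 and 3 stood above all deleted arrays, while control replicate 2 was the lowest of the 6 and lay next to deleted replicate 2. The deleted group averaged 9.95 ± 0.20 and the control group 10.34 ± 0.55 (difference -0.39, SE 0.28, 95% interval -1.05 to 0.27). Pdpn had a single probe set, and without control replicate 3 its difference was -0.13.

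Mmrn1, a large secreted glycoprotein of the EMILIN family made by endothelial cells and platelets, had a signal of 8.02, 7.18 and 8.20 on the deleted arrays and of 8.95, 7.94 and 8.35 on the control arrays. The overlap came from control replicate 2 alone, which lay below deleted replicates 1 and 3. With means of 7.80 ± 0.54 in the deleted and 8.41 ± 0.51 in the control group, the difference was -0.61 (SE 0.34, 95% interval -1.42 to 0.20). It was -0.30 without deleted replicate 2 and -0.34 without control replicate 1. Its second probe set lay near the bottom of the scale, with a mean of 3.17, and differed by -0.15.

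Nts, the precursor of the peptide neurotensin, which is known from gut and brain and marks lymphatic endothelium in mouse tissues, had a signal of 8.56, 9.11 and 7.995 on the deleted arrays and of 8.63, 8.41 and 9.31 on the control arrays. Deleted replicate 3 held the lowest value and control replicate 3 the highest. The means of 8.55 ± 0.56 in the deleted and 8.79 ± 0.47 in the control group gave a difference of -0.23 (SE 0.34, 95% interval -1.03 to 0.56). It was 0.05 without deleted replicate 3 and 0.03 without control replicate 3.

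Fgl2, a fibrinogen-like protein found as a membrane prothrombinase and as a secreted regulator of immune cells, had a signal of 8.89, 9.11 and 10.13 on the deleted arrays and of 9.67, 9.37 and 9.16 on the control arrays. The control values lay inside the range of the deleted values, which deleted replicate 3 set at its upper end. The groups averaged 9.38 ± 0.66 (deleted) and 9.40 ± 0.26 (control), a difference of -0.02 (SE 0.33, 95% interval -0.79 to 0.76). A dimmer second probe set of Fgl2 differed by 0.40 and had the widest interval of the 13 (-1.13 to 1.93).

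Sema3d, a secreted class 3 semaphorin that guides vessels and nerves, was the dimmest of the representative probe sets, with a signal of 7.62, 6.25 and 6.37 on the deleted arrays and of 7.31, 6.43 and 7.40 on the control arrays. Deleted replicate 1 was the highest of all, and the other deleted arrays were the lowest. The deleted group averaged 6.75 ± 0.76 and the control group 7.05 ± 0.54 (difference -0.30, SE 0.42, 95% interval -1.28 to 0.69), and the difference was -0.73 without deleted replicate 1, -0.60 without control replicate 2 and -0.05 without deleted replicate 2. Its second probe set, with a mean of 3.36, differed by 0.20.

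**Figure D1:**
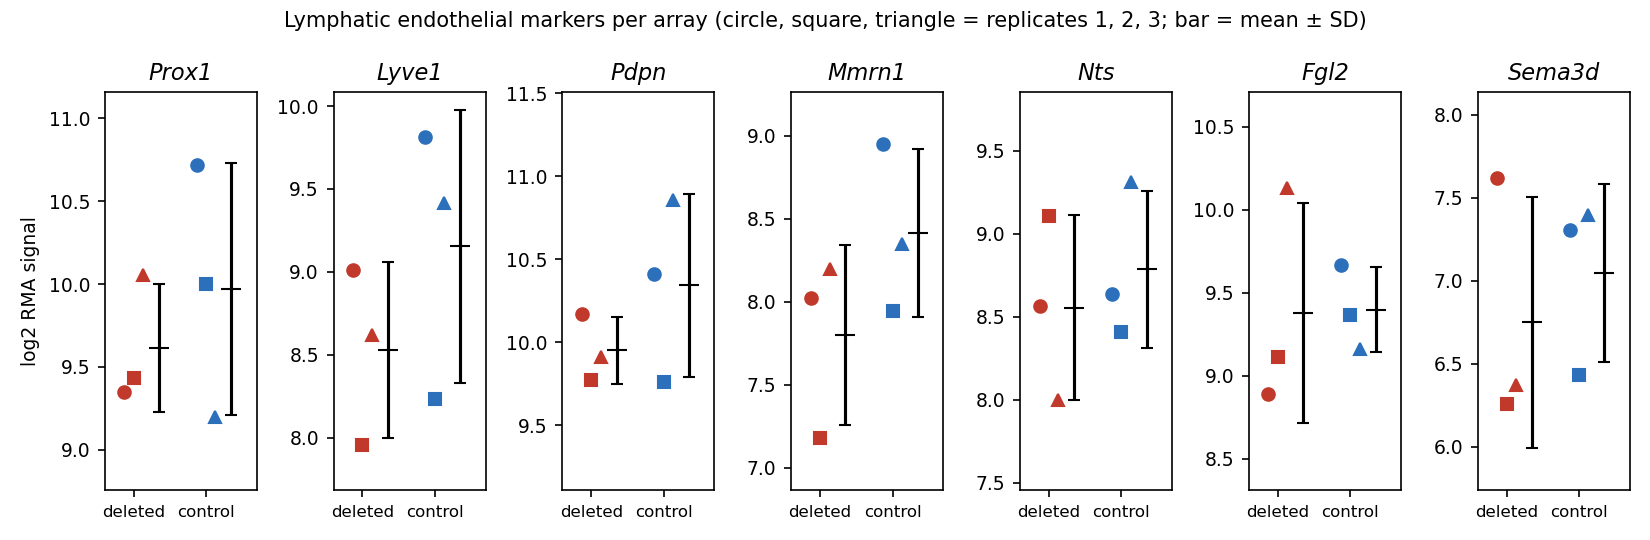
RMA log2 signal of the 7 measured lymphatic markers on each array, with deleted arrays in red on the left and control arrays in blue on the right of each panel (circle, square and triangle are replicates 1, 2 and 3) and the mean ± SD as a bar. The groups overlap in every panel, and the blue circle is the highest point for Prox1 (10.72), Lyve1 (9.81) and Mmrn1 (8.95).

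Among the 13 probe sets, 11 had a lower mean in the deleted group, and the 2 that did not were the dim second probe sets of Fgl2 and Sema3d. Of the 6 probe sets that did not represent their gene, only that of Lyve1 lay above the median signal. The representative probe sets varied more between arrays than most genes did: the median of their SD over the 6 arrays was 0.57, against 0.22 over all genes, and all 7 exceeded that value. The half-width of the 95% interval had a median of 0.45 over all probe sets.

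**Figure D2:**
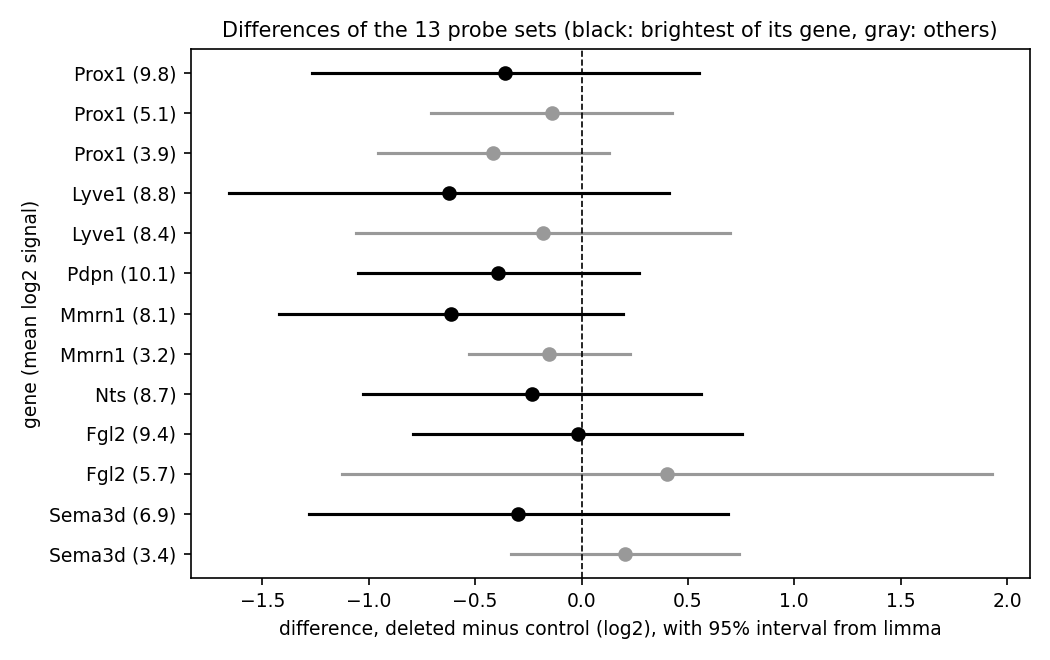
Difference between the groups (deleted minus control, log2) with the 95% interval from limma for all 13 probe sets of the lymphatic markers, black for the probe set that represents a gene and gray for its others, with the mean signal in parentheses. The black points run from -0.62 (Lyve1) to -0.02 (Fgl2), and every interval crosses 0.

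The markers were next compared array by array, each as its deviation from its own mean over the 6 arrays. On control replicate 1, 6 of the 7 lay above their mean, all but Nts. On control replicate 3, 5 did, with Prox1 and Fgl2 below theirs. On control replicate 2 only Prox1 lay above its mean, and this control array thus stood with the deleted arrays.

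On deleted replicate 2 only Nts lay above its mean, and Lyve1 and Mmrn1 were 0.88 and 0.93 below theirs. Deleted replicates 1 and 3 each had 3 markers above their mean, but different ones: Lyve1, Pdpn and Sema3d on replicate 1, and Prox1, Mmrn1 and Fgl2 on replicate 3. The mean deviation of the 7 markers was -0.03, -0.43 and -0.08 on the deleted arrays and 0.52, -0.24 and 0.26 on the control arrays. The 2 arrays with the highest mean deviation were thus controls, and the remaining control lay between the deleted arrays. Subtracting the mean deviation of 12 blood endothelial markers left -0.17, -0.27 and -0.26 on the deleted arrays and 0.45, -0.26 and 0.52 on the control arrays, the same split with control replicate 2 among the deleted arrays.

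Over the 6 arrays, 14 of the 21 pairs of markers had a Pearson correlation above 0 and 5 had one above 0.7, with a median of 0.30. These correlations describe 6 arrays that share 2 groups and 1 normalization, and genes are not independent replicates. Lyve1, Mmrn1, Pdpn and Sema3d went together, in a grouping made after their values were seen. Their 6 pairs had correlations of 0.59 to 0.90, of 0.48 to 0.87 once the group means were removed, and of 0.24 to 0.95 without the 2 arrays farthest from the median of the first gene. Lyve1 and Mmrn1 were the closest pair (r = 0.90, Spearman's rho = 0.94), followed by Lyve1 and Pdpn (r = 0.85). Prox1, the factor that marks the lineage, did not follow Pdpn (r = -0.16) or Sema3d (r = -0.14) and went instead with Fgl2 (r = 0.70) and Mmrn1 (r = 0.60). Nts went against Fgl2 (r = -0.67) and Prox1 (r = -0.55).

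**Figure D3:**
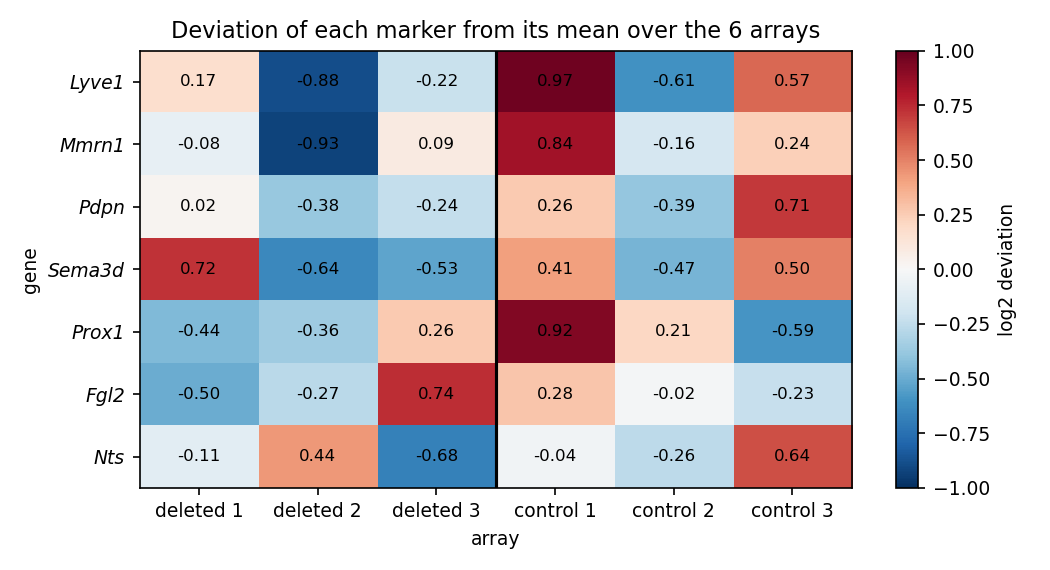
Deviation of each measured lymphatic marker (rows) from its own mean over the 6 arrays, in log2 units, with the deleted arrays left of the black line and the control arrays right of it. Control replicate 1 is red in every row but Nts (up to 0.97 for Lyve1), whereas control replicate 2 is blue in every row but Prox1 (0.21).

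The stretch of 250 bases before the transcription start is shown for the markers that moved together and for the pair formed by Prox1 and Fgl2, from RefSeq on the mouse build GRCm38.p6. Capitals mark matches on either strand to 4 motifs of 6 letters: CCGGAA (Ets family), AACAAT (Sox family), AGGTCA (a half-site of nuclear receptors such as Nr2f2) and TATAAA (the TATA box). No matches overlapped. By symbol, 7 of the 8 genes matched an entry, all but Lyve1. The positions are Pdpn chr4:143299565-143299814 (minus strand), Mmrn1 chr6:60944067-60944316 (plus strand), Sema3d chr5:12382916-12383165 (plus strand), Prox1 chr1:190170828-190171077 (minus strand, the first of its 2 listed starts) and Fgl2 chr5:21372423-21372672 (plus strand).
Pdpn: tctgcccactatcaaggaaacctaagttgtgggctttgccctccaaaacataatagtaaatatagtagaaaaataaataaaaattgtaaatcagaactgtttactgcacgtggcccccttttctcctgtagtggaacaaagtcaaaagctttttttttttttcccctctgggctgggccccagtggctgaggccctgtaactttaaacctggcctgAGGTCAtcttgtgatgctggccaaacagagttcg
Mmrn1: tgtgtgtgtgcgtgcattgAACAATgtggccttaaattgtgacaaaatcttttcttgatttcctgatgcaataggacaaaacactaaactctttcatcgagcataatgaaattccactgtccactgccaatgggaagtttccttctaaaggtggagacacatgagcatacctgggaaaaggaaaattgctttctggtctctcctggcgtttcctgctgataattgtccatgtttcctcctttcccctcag
Sema3d: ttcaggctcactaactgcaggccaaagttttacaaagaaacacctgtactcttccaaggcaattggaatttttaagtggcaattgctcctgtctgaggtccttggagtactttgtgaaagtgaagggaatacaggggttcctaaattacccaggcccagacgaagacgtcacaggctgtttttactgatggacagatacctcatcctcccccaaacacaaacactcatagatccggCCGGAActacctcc
Prox1: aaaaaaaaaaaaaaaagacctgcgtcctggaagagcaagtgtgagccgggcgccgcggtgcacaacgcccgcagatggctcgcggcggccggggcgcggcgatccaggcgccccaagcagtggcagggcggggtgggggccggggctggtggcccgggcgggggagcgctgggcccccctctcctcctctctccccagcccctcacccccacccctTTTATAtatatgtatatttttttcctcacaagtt
Fgl2: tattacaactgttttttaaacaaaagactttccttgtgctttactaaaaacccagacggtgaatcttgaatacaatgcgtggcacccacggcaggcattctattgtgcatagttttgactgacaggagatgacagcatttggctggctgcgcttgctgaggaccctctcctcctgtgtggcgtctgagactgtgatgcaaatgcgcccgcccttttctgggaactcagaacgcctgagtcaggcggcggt

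Each of the 3 promoters of the markers that moved together held a single match, and to a different motif. Sema3d held CCGGAA at bases -14 to -9 from the start, Mmrn1 held AACAAT at bases -231 to -226 and Pdpn held AGGTCA at bases -34 to -29. The Prox1 sequence held TATAAA on the opposite strand at bases -34 to -29, and the Fgl2 sequence held none of the 4. Over 32851 mouse promoters of the same length, CCGGAA occurred in 12.0%, AACAAT in 9.4%, AGGTCA in 14.0% and TATAAA in 12.4%. The Prox1 promoter was the richest in G and C, at 64.8% with 20 CG steps, against 43.2% with 2 for Pdpn, 42.4% with 3 for Mmrn1, 46.8% with 4 for Sema3d and a median of 52.4% over all promoters. No motif was shared among the promoters of Pdpn, Mmrn1 and Sema3d, and that of Lyve1, which moved with them, could not be searched. A match is a match of letters only.

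The other genes of lymphatic vessel formation were split in direction. Of 27 measured, 17 had a lower and 10 a higher mean in the deleted group, with a median difference of -0.05, and 1 had an unadjusted p under 0.05, as did 2.07% of all probe sets, so that this count is near the share over the whole table. The majority turned with the processing, since 8 of the 27 were lower with array weights and 10 with the mean of each gene's probe sets, and the number was 12 without control replicate 1 and 11 without deleted replicate 2. Among the ligands and receptors, Vegfc differed by -0.09 (SE 0.15) and Vegfd, the related growth factor, by -0.27 (SE 0.23). Their receptor Flt4 differed by -0.05 (SE 0.15), with a signal of 12.06 to 12.29 on the deleted and 12.01 to 12.30 on the control arrays. Its co-receptor Nrp2 differed by -0.01 (SE 0.14). The differences of Vegfc, Flt4 and Nrp2 were all smaller than their SE, and their sign turned under several of the alternatives given in the closing section.

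The transcription factors that act upstream of Prox1 or in lymphatic valves went both ways, within the spread of the arrays. Sox18 differed by 0.28 (SE 0.29), Nr2f2 by 0.15 (SE 0.33) and Foxc2, a factor of valve formation, by 0.17 (SE 0.31), while Gata2 differed by -0.05 (SE 0.27) and the valve factor Nfatc1 by -0.06 (SE 0.24). Without deleted replicate 1 the difference of Sox18 was 0.08. Tbx1, which is needed for lymphatic growth in mouse embryos, differed by -0.41 (SE 0.37), and Stab2, a second hyaluronan receptor, by -0.46 (SE 0.52). Without control replicate 3 these became -0.04 for Tbx1 and 0.09 for Stab2. Cldn11, a tight junction protein, had the highest difference of the list, 0.32 (SE 0.37), which was 0.03 without control replicate 2 and 0.07 without deleted replicate 1.

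By the probe sets that represent the genes, Reln, the secreted glycoprotein reelin, was the gene of the list with an unadjusted p under 0.05. It also had the largest difference of the list. It had a signal of 8.08, 7.15 and 7.67 on the deleted arrays and of 8.70, 8.03 and 9.00 on the control arrays, with only control replicate 2 inside the range of the deleted arrays. The difference was -0.94 (SE 0.32, 95% interval -1.69 to -0.20), and limma's adjusted p was 0.9999. A dim second probe set of Reln differed by 0.08, and with the mean of its probe sets Reln differed by -0.43. Angpt2, of the same list, differed by 0.17 (SE 0.29), and its second probe set by 0.53 (SE 0.18, 95% interval 0.11 to 0.95). On that second probe set, also above the median signal, every deleted array lay above every control array. Groups free of overlap in either direction occurred in 6.07% of all genes. Ordered by correlation with the mean deviation of the 7 markers, Reln was number 47 of 11282 genes brighter than the median (r = 0.87). The 5 genes most like the markers by this measure were Lrmp (r = 0.98), Sdccag8 (r = 0.97), Entpd3 (r = 0.97), Abcc3 (r = 0.96) and Sfrp2 (r = 0.96), and 28 genes had a correlation above 0.9 over the 6 arrays.

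**Figure D4:**
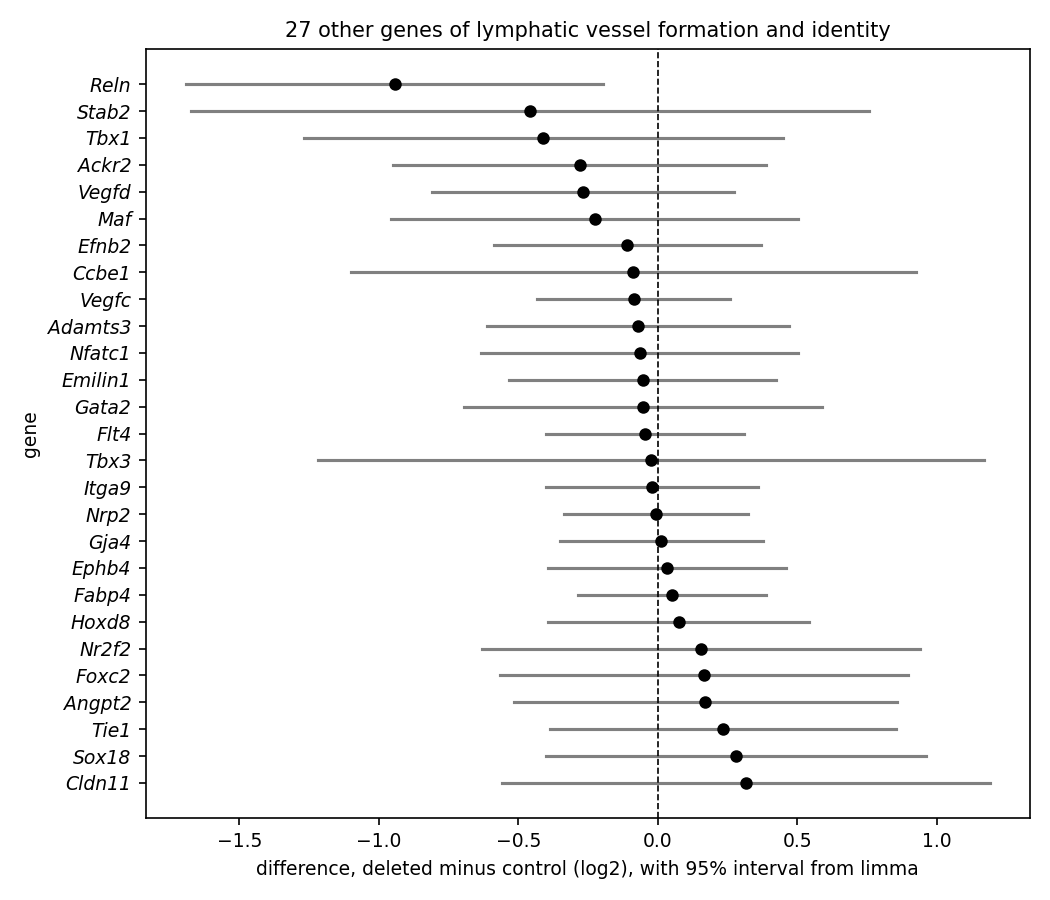
Difference between the groups (deleted minus control, log2) with the 95% interval from limma for 27 other genes of lymphatic vessel formation and identity, ordered by size. Reln (-0.94) is the only one whose interval leaves out 0, and Flt4 (-0.05) and Nrp2 (-0.01) lie at the middle.

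Receptors, binding partners and paralogs of the markers were read from the same cells. Of 18, 11 had a lower and 7 a higher mean in the deleted group (median -0.05). Ccr7, the receptor of Ccl21a on dendritic cells and T cells, had a dim signal of 6.73 to 7.40 on the deleted and 5.81 to 7.16 on the control arrays (difference 0.72, SE 0.36, and 0.43 without control replicate 3). Clec1b, the gene of CLEC-2 and the partner of Pdpn, differed by 0.37 (SE 0.19), and Prox2, the paralog of Prox1, by 0.49 (SE 0.31), both at a signal below the median. The difference of Prox2 was 0.13 without deleted replicate 1.

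Fcgr2b, an inhibitory Fc receptor of B cells and macrophages to which secreted Fgl2 binds, had a signal of 8.11, 8.06 and 7.78 on the deleted arrays and of 8.41, 8.33 and 8.46 on the control arrays. It was the one gene of these 18 with every deleted array below every control array, as in 2.7% of all genes, and it had an unadjusted p under 0.05, which 2.07% of all probe sets had. A count of 1 in 18 is near these shares. Its difference was -0.42 (SE 0.15).

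Markers of other cells differed in mean between the groups as well. Of 12 blood endothelial markers, 3 had a lower and 9 a higher mean in the deleted group (median 0.07), among them Pecam1, the gene of CD31, at 0.39 (SE 0.27) and Emcn, an endothelial sialomucin, at 0.30 (SE 0.21). Without control replicate 3 these became 0.16 for Pecam1 and 0.07 for Emcn, and with the fixed replicate block 0.07 and 0.03. The number of the 12 with a lower mean was 6 with array weights and with the fixed replicate block. It was 5 without deleted replicate 1 or 3 and 1 without deleted replicate 2. Pecam1 had a signal of 11.27 to 11.93 on the deleted arrays and of 10.83 to 11.58 on the control arrays. All 14 macrophage markers had a lower mean, against 49.1% of all genes, with a median difference of -0.71, and 7 of them had every deleted array below every control array, against 2.7% of all genes. Their mean deviation was -0.43, -0.03 and -0.58 on the deleted arrays, all below the 0.08, 0.22 and 0.74 of the control arrays.

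Mrc1, the mannose receptor of tissue macrophages that often also carry Lyve1, differed by -0.93 (SE 0.30), with a signal of 8.18 to 8.90 on the deleted and 9.04 to 10.04 on the control arrays. C1qb, a subunit of complement C1q, differed by -1.30 (SE 0.50), and by -0.85 without control replicate 3. Of 12 fibroblast markers, 11 had a lower mean (median -0.45), with Pdgfra at -0.59 (SE 0.19), and their mean deviations of -0.19, -0.26 and -0.14 on the deleted arrays all lay below the 0.37, 0.05 and 0.17 of the control arrays. None of these lists had a marker with an adjusted p under 0.05 (limma).

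Of 9 myoepithelial and luminal epithelial markers, all of which lay above the median signal in these sorted cells, 7 had a lower mean (median -0.14). Averaged over the 6 arrays, the signal was 10.49 for Krt5, 10.80 for Krt14, 7.69 for Krt17 and 13.65 for Krt18. For the endothelial Pecam1, Cdh5 and Kdr it was 11.49, 11.03 and 12.15. Signals of different genes were not read as amounts. Krt5, a keratin of myoepithelial cells, which carry Pdpn, was the most different of the 9, with a signal of 10.15 to 10.53 on the deleted and 10.17 to 11.36 on the control arrays, and its difference of -0.38 was -0.04 without control replicate 3. The 2 markers with a higher mean, named after their values were seen, were Acta2 (0.01) and Epcam (0.11). Without deleted replicate 1, 3 of the 9 markers were lower. Of 8 pan-leukocyte markers, 7 had a lower mean (median -0.45), while their mean deviation was -0.57, 0.33 and -0.40 on the deleted arrays and 0.10, 0.02 and 0.53 on the control arrays, which overlap. Of 8 markers of lymph node stroma and high endothelial venules, which would come with a lymph node in the tissue, 2 had a lower mean and the median difference was 0.12. Only 1 lay above the median signal, Glycam1, which was bright, at 13.37 to 13.50 on the deleted and 13.01 to 13.22 on the control arrays. Its difference was 0.31 (SE 0.13), and its groups did not overlap, as in 6.07% of all genes in either direction. The other measured markers of this list were dimmer, with Cxcl13 at 6.25, Tnfsf11 at 5.22 and Madcam1 at 7.01 averaged over the 6 arrays. Which cells gave the Glycam1 signal was not tested. Of 7 B and T lymphocyte markers, 3 had a lower and 4 a higher mean (median 0.06), and of 6 dendritic cell markers 1 had a lower and 5 a higher mean (median 0.08). Of 6 pericyte and smooth muscle markers, 1 had a lower and 5 a higher mean (median 0.23). The lower means of Lyve1 and Pdpn thus stood beside lower means of most macrophage, fibroblast, pan-leukocyte and epithelial markers, whereas most lymphocyte, dendritic cell and pericyte markers had higher means. That contrast depended on the arrays. Of the 7 lymphocyte markers, 6 were lower without control replicate 2 and 5 without deleted replicate 2. Without deleted replicate 1, 4 of the 6 dendritic cell markers were lower, and without deleted replicate 3, 3 of the 6 pericyte and smooth muscle markers were. The part of all these cell types in the differences of the lymphatic markers was not tested.

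**Figure D5:**
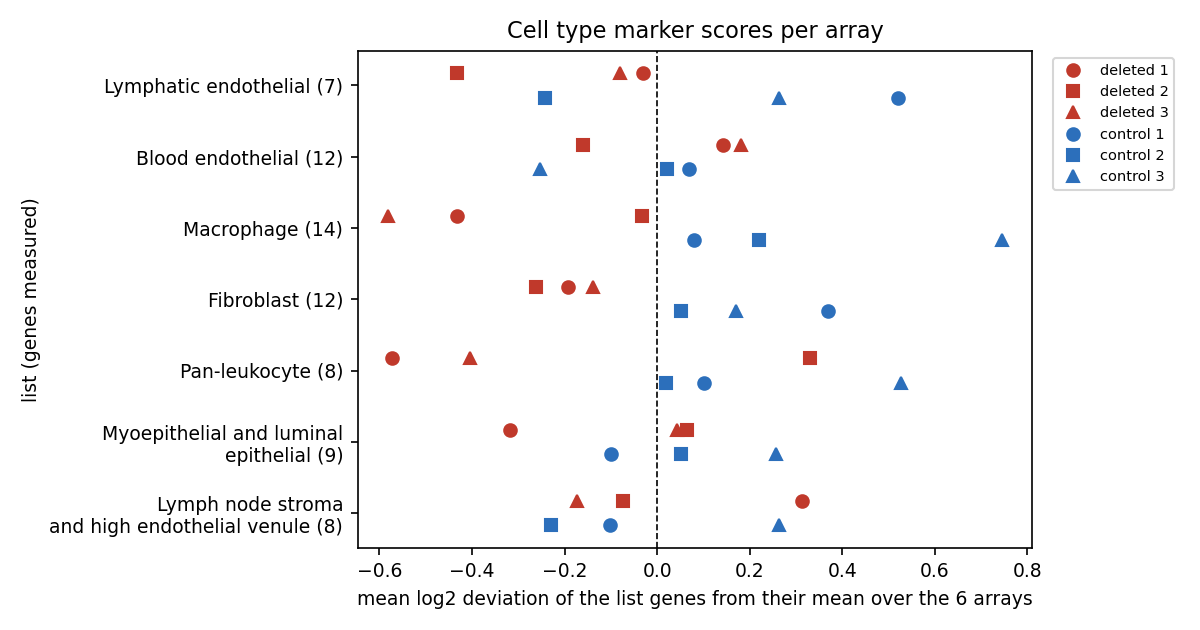
Mean log2 deviation of the genes of 7 marker lists on each array, with deleted arrays in red above control arrays in blue in each row and the number of genes measured in parentheses. For the lymphatic markers control replicate 2 (-0.24) lies between the deleted arrays (-0.43 to -0.03), whereas for the macrophage and fibroblast markers all deleted arrays lie left of all control arrays.

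Between the arrays with the same identifier number, the signal on the deleted array minus that on the control array was -1.36 for Prox1, -0.93 for Mmrn1, -0.80 for Lyve1 and -0.78 for Fgl2 in FPE101, with only Sema3d above 0, at 0.31. In FPE104 it was -0.76 for Mmrn1, -0.56 for Prox1, -0.27 for Lyve1 and -0.25 for Fgl2, whereas Nts was 0.70 and Pdpn 0.01. Prox1, Lyve1, Mmrn1 and Fgl2 were thus lower on the deleted array in both, and the share of all genes that were so was not computed. The remaining values were -0.24 for Pdpn and -0.07 for Nts in FPE101, and -0.18 for Sema3d in FPE104. Over all probe sets, the deviations of arrays with the same number from their group means had correlations of 0.17 and -0.02. With the number as a random block in limma the consensus correlation was 0.10. The group means include replicate 3, which has no partner, so these values cannot decide whether the numbers pair the samples. The main fit did not pair them.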

How the data were processed

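The table deposited by the authors held log2 values from RMA, which corrects background, normalizes by quantiles and summarizes probe sets and can narrow the differences of dim ones. The RMA version was not given in the sources used here. Of 45101 probe sets, 64 array controls were left out. By the platform's annotation 34945 named a single gene (34741 matched to RefSeq for current symbols), 932 named several and 9160 none. Differences were fitted in R 4.3.3 using limma 3.58.1 (two-sided, lmFit then eBayes, no covariates, 6 arrays) with Benjamini-Hochberg adjustment over all 45037 probe sets. The script was tested on simulated data. The number of arrays limits the precision.

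The members and all gene lists were chosen with earlier results of these data known. Genes named were the markers, genes of the pathway and partner lists, the first or most different genes of other lists, the 5 genes most correlated with the markers and Ets2. Alternatives covered signal filters, scaling, priors, array weights, identifier blocks, unmoderated tests, thresholds, probe set choice and leaving out each array. The largest share of identical values between 2 arrays was 0.218%. Whether arrays come from separate mice is known only from the study's wording. The p-values of limma thus set a difference against the spread between these samples, with the variance shared in part across probe sets.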

Additional observations from a re-analysis of the deposited data

How the results depend on the processing

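No member passed an adjusted p of 0.05 under any alternative, and the count of calls over all probe sets stayed at 0 in all of them. The number of the 7 members with a lower mean was 3 with array weights, which gave control replicate 2 a weight of 8.32 against 0.38 to 0.99 for the other arrays, and 5 to 7 with 1 array left out. It was 5 with the fixed replicate block on the identifier numbers and 7 with the random replicate block. With array weights the members' median difference was 0.10, and the sign turned for Lyve1 (0.17), Pdpn (0.10), Sema3d (0.20), Fgl2 (0.10), Flt4 (0.11), Nrp2 (0.033), Stab2 (0.40), Tbx1 (0.21), Vegfd (0.11), Gata2 (0.21) and Nfatc1 (0.15). With the fixed replicate block, which rests on 4 arrays, it turned for Nts (0.31), Sema3d (0.069), Flt4 (0.029), Foxc2 (-0.17), Nr2f2 (-0.33), Nrp2 (0.017) and Stab2 (0.27). With the mean of a gene's probe sets it turned for Fgl2 (0.19), Nrp2 (0.094), Gata2 (0.036) and Vegfc (0.012), with the probe set of largest SD for Fgl2 (0.40), Nr2f2 (-0.082), Nrp2 (0.17), Gata2 (0.13) and Vegfc (0.055), and with centring on array medians for Nrp2 (0.0094). With 1 array left out the differences that turned ranged from -0.74 to 0.015 for Prox1, -0.51 to 0.049 for Nts, -0.39 to 0.23 for Fgl2, -0.14 to 0.0065 for Flt4, -0.0074 to 0.49 for Foxc2, -0.12 to 0.47 for Nr2f2, -0.060 to 0.069 for Nrp2, -0.20 to 0.21 for Gata2, -0.20 to 0.13 for Nfatc1, -0.99 to 0.087 for Stab2 and -0.17 to 0.0050 for Vegfc. By the limits the study names (more than 2-fold, with the unadjusted p below 0.05), 58 probe sets (0.129%) were counted, none of them a member's. That count was 152 with array weights, 15 above the median signal, 317 with the fixed replicate block, 402 at a fold change over 1.5, 23 and 18 in the unmoderated tests with equal and unequal variance, and 61 to 191 with 1 array left out. The cause of these shifts was not tested. Sema3d lies below the median signal and has no value under that filter.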
